A study of Mus musculus with 6 samples.

Results

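The Slit, Robo, netrin and Unc5 genes encode a ligand and receptor system that steers growing axons, and 10 of them were followed here: Slit1, Slit2, Slit3, Robo1, Robo2, Dcc, Unc5a, Unc5b, Unc5c and Ntn1. They were chosen by symbol, and all 10 were among the 21878 rows of the expression table. The cells were Neuro-2a, a line from a mouse neuroblastoma, a tumour of the sympathetic lineage, that can grow neurites. RNA sequencing covered 3 groups of 2 libraries: cells overexpressing the long noncoding RNA lncPim1, cells with lncPim1 lowered by RNA interference (knockdown), and control cells labelled wild type. The labels name no vector, interfering sequence, clone or empty control for any group, and they mention no injury agent, although the series title speaks of injury by ACR.

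Slit proteins are secreted and bind Robo receptors on the growth cone, which usually turn the axon away. Netrin-1, the product of Ntn1, is a secreted cue that attracts axons through the receptor Dcc and repels them when a receptor of the Unc5 family takes part. Dcc and the Unc5 proteins are also called dependence receptors, because without netrin they can promote cell death. In the sympathetic nervous system, from which neuroblastoma arises, these cues also act on migrating neural crest cells.

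Values are FPKM, fragment counts that the authors scaled for transcript length and library size, so levels of different genes can be set side by side. Summed FPKM was 294510 to 303139 under overexpression, 272528 to 277508 under knockdown and 298032 to 305463 in control cells. Spearman correlations over 10721 tested genes were 0.995 to 0.997 within groups. The knockdown libraries correlated with the other 4 at 0.976 to 0.984, and the overexpression libraries with the control libraries at 0.992 to 0.994. A row for lncPim1 itself was not analysed here, so the labels were not checked on the targeted RNA. Of 15 markers of sympathetic neuroblasts, 13 passed the filter of 1 FPKM, among them Hand2 at 68.3 to 111.1 FPKM and Tubb3 at 246 to 397 FPKM. Dbh, of noradrenaline synthesis, stayed under 0.5 FPKM.

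The 10 genes fell into 6 that averaged 1 FPKM or more across libraries and 4 that averaged less. Slit1, Slit2, Slit3, Unc5a, Unc5b and Unc5c passed the filter, which asked for 1 FPKM or more on average across libraries, and each of them was above 1 FPKM in every library. Robo1, Robo2, Dcc and Ntn1 did not pass and were not part of the main test. Among the 10 genes, the 3 Slit and 3 Unc5 transcripts thus stood at 2.02 to 35.1 FPKM, while Robo1, Robo2, Ntn1 and Dcc stood at 0 to 0.586 FPKM. In control cells the order of mean levels ran from Unc5b (27.0 FPKM) through Slit2 (25.8), Unc5a (24.5), Slit3 (20.7), Unc5c (16.8) and Slit1 (2.40) to Ntn1 (0.309), Robo2 (0.252), Robo1 (0.0428) and Dcc, listed at 0 in both libraries. The 2 libraries of Unc5b overlapped those of Slit2 in control cells, those of Slit2 overlapped Unc5a, and those of Ntn1 overlapped Robo2. The other neighbours in that order did not overlap. Ranked by mean FPKM among rows with any signal, Unc5b stood at the 89.3 percent mark, Slit2 at 82.7 percent and Slit1 at 47.0 percent. Of the 4 lower genes, Ntn1 stood at 31.2 percent, Robo2 at 29.0 percent, Robo1 at 14.0 percent and Dcc at 1.45 percent.

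**Figure D1:**
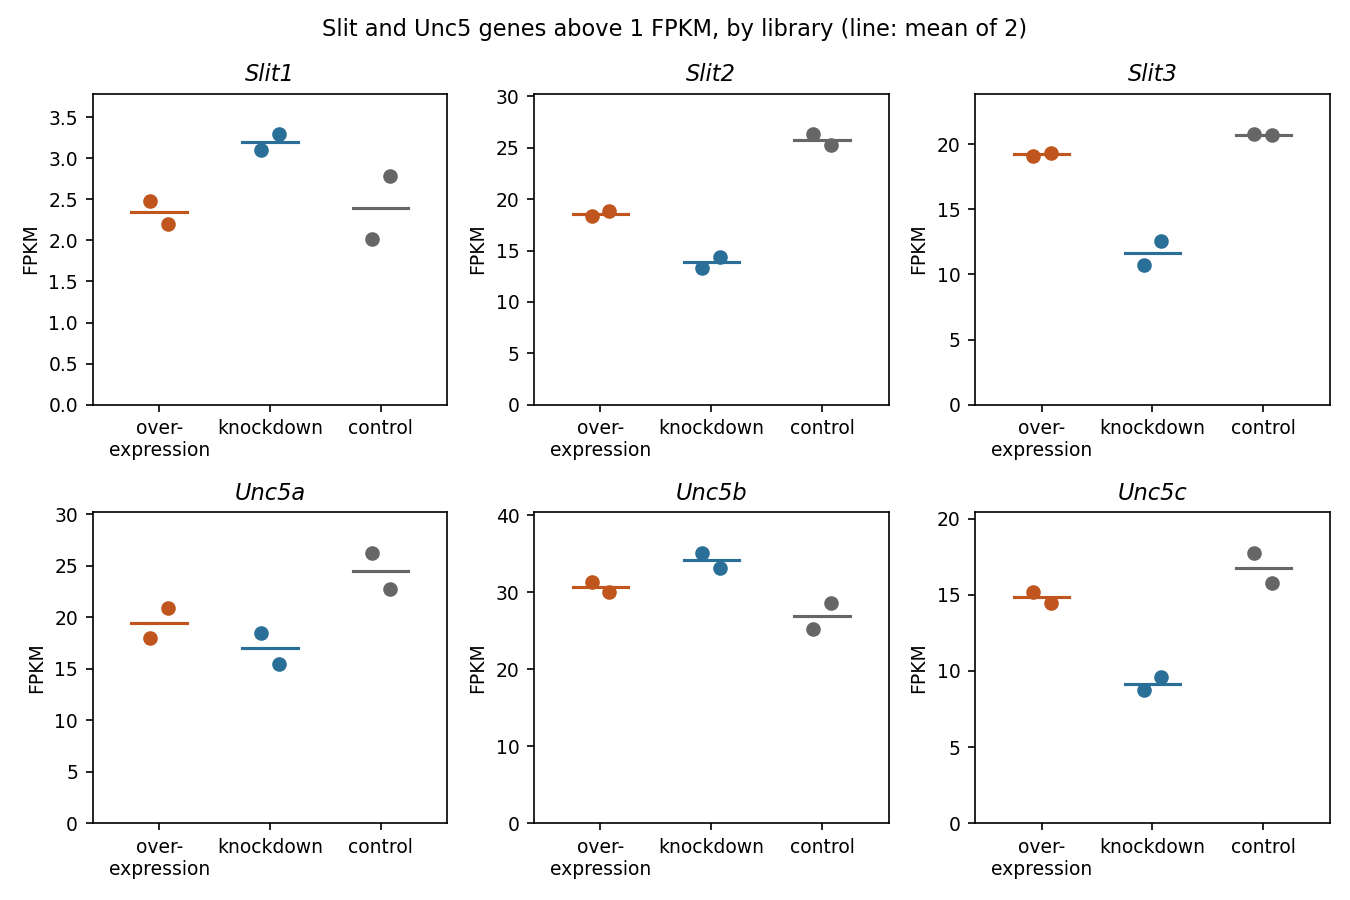
FPKM of the 6 expressed guidance genes in each library (points) with the mean of the 2 libraries of a group (line), each panel on its own axis from 0. Slit2, Slit3 and Unc5c are lowest in the knockdown libraries, Unc5b and Slit1 are highest there, and Slit2 under overexpression (18.4 and 18.8 FPKM) lies between knockdown and control cells.

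Knockdown was set against control to ask how these genes stood when lncPim1 was lowered. All 6 expressed genes were called: Slit2, Slit3, Unc5a and Unc5c were lower, and Unc5b and Slit1 were higher. Slit2 averaged 13.9 ± 0.746 FPKM under knockdown and 25.8 ± 0.783 FPKM in control cells (SD, n = 2 each). A gene was called at a limma p-value under 0.05 after Benjamini-Hochberg adjustment over all 10721 tested genes. In this contrast 46.2% of all tested genes were called, 31.3% lower and 14.8% higher, so a call by itself is common. Scaling each library by its median log ratio gave 2158 higher and 2420 lower calls over all genes, in place of 1590 higher and 3358 lower. The median log2 fold change over all tested genes was -0.07, and that of the 6 guidance genes, 4 lower and 2 higher, was -0.64. The guidance genes were chosen with earlier results of these data known, so their counts and medians beside those of all genes are descriptions. Overexpression was set against control to ask the same of added lncPim1. Of the 6 genes only Slit2 was called, and lower, where 1.54% of all tested genes were called, 0.849% lower and 0.690% higher. The medians there were -0.13 over the 6 genes and -0.003 over all tested genes. Both of these contrasts use the same 2 control libraries. No label says that replicates were separate cultures, so the p-values reflect library-to-library spread, which may be technical.

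Among the ligands, Slit2, which encodes a repellent for commissural and many other axons, was lower in both treated groups. Slit2 stood at 18.4 and 18.8 FPKM under overexpression, 13.3 and 14.4 FPKM under knockdown, and 26.3 and 25.2 FPKM in control cells. The 3 groups did not overlap, with the control libraries highest and the knockdown libraries lowest. The log2 fold change of Slit2 in knockdown cells was -0.85 ± 0.06 (SE), with a 95% interval of -0.98 to -0.72 (limma, adjusted p = 7.25e-05). Under overexpression it was -0.45 ± 0.06, with an interval of -0.58 to -0.32 (limma, adjusted p = 0.0109). Overexpressing cells were higher than knockdown cells by 0.40 ± 0.06 on the log2 scale (limma, adjusted p = 0.00128), so the knockdown libraries were the lower of the treated groups. Fold changes are of log2(FPKM + 1). The knockdown call held under each alternative tried, between -0.90 and -0.75. The overexpression call did not hold without control 1 (limma, adjusted p = 0.128), control 2 (0.0564), overexpression 1 (0.0830) or overexpression 2 (0.0535), while the log2 fold change in those fits stayed between -0.48 and -0.42. It also did not hold when rows of low FPKM were kept in the test (limma, adjusted p = 0.0728).

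Slit3, a related secreted ligand that is also needed in diaphragm and heart development, was lower under knockdown. It stood at 19.1 and 19.3 FPKM under overexpression, 10.7 and 12.6 FPKM under knockdown, and 20.8 and 20.7 FPKM in control cells. The knockdown libraries lay well below the other 4, and the overexpression libraries lay just below the control libraries. The log2 fold change was -0.78 ± 0.07 under knockdown (limma, adjusted p = 1.60e-04) and -0.10 ± 0.07 under overexpression, with an interval of -0.27 to 0.06 (limma, adjusted p = 0.503). Overexpression against knockdown gave 0.68 ± 0.07 (limma, adjusted p = 4.58e-04).

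Slit1, the ligand best known from forebrain and retinal axons, was the lowest of the 3 Slit genes and went the other way. It stood at 2.48 and 2.20 FPKM under overexpression, 3.10 and 3.29 FPKM under knockdown, and 2.02 and 2.78 FPKM in control cells. Both knockdown libraries were above the other 4, and the overexpression libraries fell within the control range. Its log2 fold change under knockdown was 0.31 ± 0.11 (limma, adjusted p = 0.0478), close to the threshold. That call held in only 4 of 14 alternatives and was lost, among others, without control 1 (log2 fold change 0.15; limma, adjusted p = 0.311), knockdown 1 (0.0963) or knockdown 2 (0.158), and without either overexpression library (0.0558 and 0.0554). Under overexpression the difference was -0.02 ± 0.11, with an interval of -0.27 to 0.24 (limma, adjusted p = 0.958). Overexpression against knockdown gave -0.33 ± 0.11 (limma, adjusted p = 0.0438), and this call was lost in 7 of 14 alternatives, among them without overexpression 1 (0.0705), overexpression 2 (0.182), knockdown 1 (0.0946) or knockdown 2 (0.147).

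Added together, the 3 Slit genes came to 40.0 and 40.4 FPKM under overexpression, 27.2 and 30.3 FPKM under knockdown, and 49.1 and 48.7 FPKM in control cells. These sums do not overlap between groups. The make-up of the sum differed as well. Slit1 supplied 6.20% and 5.46% of it under overexpression, 11.4% and 10.9% under knockdown, and 4.11% and 5.71% in control cells. The ratio of Slit2 to Slit3, which does not depend on how a library is scaled, was 0.960 and 0.975 under overexpression, 1.24 and 1.14 under knockdown, and 1.27 and 1.22 in control cells. Slit2 was thus below Slit3 in the overexpression libraries and above it in the other 4. These sums and ratios are descriptions and were not tested.

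**Figure D2:**
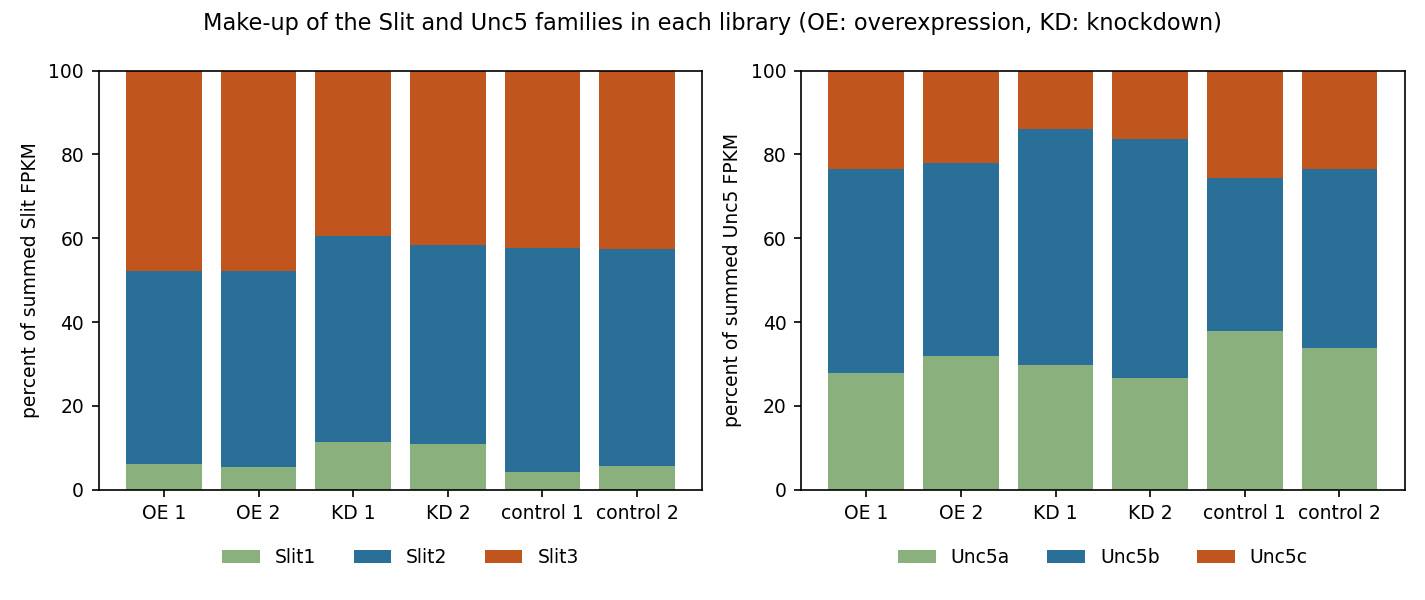
Share of each gene in the summed FPKM of the Slit family (left) and the Unc5 family (right), one stacked bar per library, in percent. Slit1 takes 10.9% to 11.4% of the Slit sum in the knockdown libraries against 4.11% to 6.20% in the other 4, and Unc5b takes 56.3% to 56.9% of the Unc5 sum there against 36.4% to 48.6%.

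Slit2 spans 47983138 to 48307733 of chromosome 5 and Slit3 spans 35121224 to 35708507 of chromosome 11, both on the plus strand (GENCODE M21, build GRCm38). Each of these genes carries, outside its annotated exons and on the same strand, a hairpin of the microRNA miR-218, known from motor neurons. Whether miR-218 is made from the Slit2 and Slit3 transcripts in these cells was not tested. The hairpin in Slit2 spans 48223942 to 48224051, and that in Slit3 spans 35616816 to 35616925. Both give the same mature 5p strand, shown with its seed, bases 2 to 8, in capitals because the 2 host genes moved in the same direction under knockdown. The sequence is RefSeq's (build GRCm38.p6), and the level of miR-218 was not analysed here.
mmu-miR-218-5p: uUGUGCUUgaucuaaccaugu

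Among the receptors, the Unc5 family encodes netrin receptors of the repulsive kind. Unc5c, required for cerebellar cell migration, was lower under knockdown. It stood at 15.2 and 14.5 FPKM under overexpression, 8.76 and 9.57 FPKM under knockdown, and 17.8 and 15.8 FPKM in control cells. Both knockdown libraries were below 10 FPKM and the other 4 were above 14 FPKM. Its log2 fold change was -0.81 ± 0.07 under knockdown (limma, adjusted p = 1.54e-04) and -0.17 ± 0.07 under overexpression, with an interval of -0.33 to -0.001 before adjustment (limma, adjusted p = 0.288). Overexpression against knockdown gave 0.64 ± 0.07 (limma, adjusted p = 5.43e-04).

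Unc5a, a netrin receptor linked to neuronal apoptosis, was also lower under knockdown. It stood at 18.0 and 20.9 FPKM under overexpression, 18.5 and 15.5 FPKM under knockdown, and 26.3 and 22.7 FPKM in control cells. The treated groups overlapped each other, and both lay below the control libraries. The log2 fold change was -0.50 ± 0.10 under knockdown (limma, adjusted p = 0.00445) and -0.32 ± 0.10 under overexpression (limma, adjusted p = 0.166). Overexpression against knockdown gave 0.18 ± 0.10, with an interval of -0.05 to 0.42 (limma, adjusted p = 0.184).

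Unc5b, which also guides blood vessels, had the highest mean of the 10 genes in all 3 groups, with Slit2 and Unc5a above it in control 1, and was higher under knockdown. It stood at 31.3 and 30.0 FPKM under overexpression, 35.1 and 33.1 FPKM under knockdown, and 25.2 and 28.7 FPKM in control cells. The 3 groups did not overlap, with the knockdown libraries highest and the control libraries lowest. The log2 fold change was 0.33 ± 0.07 under knockdown (limma, adjusted p = 0.00427) and 0.18 ± 0.07 under overexpression (limma, adjusted p = 0.217). Overexpression against knockdown gave -0.15 ± 0.07 (limma, adjusted p = 0.105). That last difference passed the threshold once libraries were scaled by median log ratio (-0.22; limma, adjusted p = 0.0268), and after quantile normalization (-0.27; 0.0161).

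The 3 Unc5 genes summed to 64.5 and 65.4 FPKM under overexpression, 62.4 and 58.2 FPKM under knockdown, and 69.3 and 67.2 FPKM in control cells. The knockdown sums were 60.3 ± 2.96 FPKM and the control sums 68.2 ± 1.52 FPKM (SD, n = 2 each), a smaller gap than that of the Slit sums. Within the family the balance moved further. Each library held 2.06 and 2.07 times as much Unc5b as Unc5c under overexpression, 4.01 and 3.46 times as much under knockdown, and 1.42 and 1.81 times as much in control cells. These ratios did not overlap between groups and do not depend on library scaling.

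**Figure D3:**
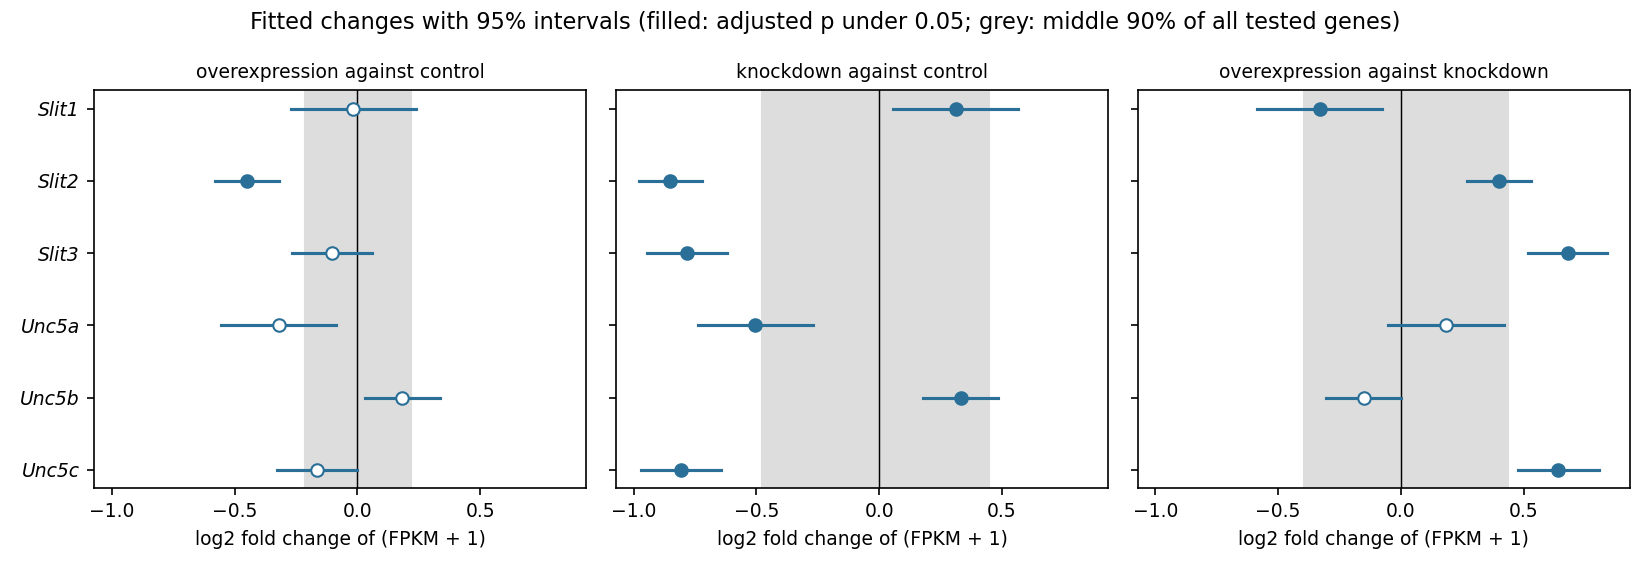
Log2 fold change of (FPKM + 1) for the 6 tested guidance genes in the 3 contrasts, with 95% intervals from limma, filled where the adjusted p was under 0.05. The grey band holds the middle 90% of all tested genes, and in knockdown against control Slit2 (-0.85), Slit3 (-0.78) and Unc5c (-0.81) lie below it. Unc5a (-0.50) is also below the band there, with an interval that reaches into it.

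The 5th percentile of all tested genes was -0.48 in knockdown against control and the 95th was 0.45. Slit2, Slit3, Unc5a and Unc5c were below the 5th percentile there, and Slit1 and Unc5b were within both limits. In overexpression against control the same percentiles were -0.21 and 0.22, and Slit2 and Unc5a were below the 5th. In overexpression against knockdown 4 of the 6 genes were called, Slit2, Slit3 and Unc5c higher and Slit1 lower, where 40.5% of all tested genes were called, 28.1% higher and 12.4% lower. Over all genes these were 3013 higher and 1332 lower, or 2062 and 1823 after scaling by median log ratio.

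The promoters of Slit2, which was lower in both treated groups, and of Unc5a and Unc5b, which were lower and higher under knockdown, are shown to set their base composition side by side. They are RefSeq's on build GRCm38.p6, upstream of the gene start and of any GENCODE exon of the gene, at chr5:47982905-47983137 (plus strand), chr13:54949161-54949410 (plus strand) and chr10:60831582-60831831 (minus strand). Capitals mark GC boxes (GGGCGG on either strand) and TATA boxes (TATAAA on either strand).
Slit2: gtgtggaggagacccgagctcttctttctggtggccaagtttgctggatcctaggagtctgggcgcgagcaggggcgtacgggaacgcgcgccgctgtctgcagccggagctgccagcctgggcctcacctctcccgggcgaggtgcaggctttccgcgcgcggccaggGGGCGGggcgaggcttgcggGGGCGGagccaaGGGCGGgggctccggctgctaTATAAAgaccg
Unc5a: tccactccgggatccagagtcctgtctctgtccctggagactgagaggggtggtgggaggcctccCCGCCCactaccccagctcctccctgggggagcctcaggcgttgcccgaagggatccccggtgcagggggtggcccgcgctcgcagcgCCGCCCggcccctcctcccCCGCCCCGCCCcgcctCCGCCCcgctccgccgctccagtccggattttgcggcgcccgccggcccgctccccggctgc
Unc5b: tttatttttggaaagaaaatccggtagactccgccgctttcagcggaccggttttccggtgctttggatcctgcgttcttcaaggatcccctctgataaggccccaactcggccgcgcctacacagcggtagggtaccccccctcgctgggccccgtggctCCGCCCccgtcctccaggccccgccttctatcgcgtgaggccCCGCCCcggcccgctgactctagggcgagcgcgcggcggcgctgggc

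In the 250 bases before the RefSeq start, Slit2 held 3 GC boxes, Slit3 held 6, Unc5a held 5, Unc5b held 2 and Unc5c held 0. For Slit3 only 18 of these 250 bases, and for Unc5c 0, lie before the GENCODE gene start, so those windows fall mostly or wholly inside the gene. GC boxes were present in 32.7% of 32851 windows of 250 bases before a RefSeq start. A TATA box was found in the Slit2 window and in none of the other 4, and in 12.4% of all windows. G and C made up 69.6% of the Slit2 window, 78.8% for Slit3, 76.8% for Unc5a, 66.8% for Unc5b and 71.2% for Unc5c, against a median of 52.4% over all windows. All 5 windows were thus above that median in G and C. None of these 5 windows held the letters GCGTGGG (the EGR core), CACGTG (an E-box), TGANTCA (the AP-1 site) or TGACGTCA (the cAMP response element), which occurred in 4.30%, 6.02%, 6.75% and 1.55% of all windows.

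The 4 remaining genes were at very low levels. Ntn1, the netrin-1 gene, stood at 0.214 and 0.225 FPKM under overexpression, 0.586 and 0.456 FPKM under knockdown, and 0.347 and 0.271 FPKM in control cells. The 3 groups did not overlap, with the knockdown libraries highest and the overexpression libraries lowest. In a fit that kept all 17311 rows with any signal, Ntn1 was higher under knockdown by 0.22 ± 0.05 on the log2(FPKM + 1) scale (limma, adjusted p = 0.0392). Of these 17311 rows, the fit called 4894 under knockdown and 4142 in overexpression against knockdown. In that fit overexpression against control gave -0.10 ± 0.05 (limma, adjusted p = 0.503) and overexpression against knockdown -0.32 ± 0.05 (limma, adjusted p = 0.0168).

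Robo2, one of the Slit receptors, stood at 0.284 and 0.167 FPKM under overexpression, 0.228 and 0.248 FPKM under knockdown, and 0.223 and 0.280 FPKM in control cells. The 3 groups overlapped, and in the fit without a filter knockdown differed from control by -0.02 ± 0.05 (limma, adjusted p = 0.873). Robo1, the other Slit receptor followed, stood at 0.0227 and 0.0217 FPKM under overexpression, was listed at 0 in both knockdown libraries, and stood at 0.0621 and 0.0236 FPKM in control cells. Dcc, the attractive netrin receptor, was listed at 0 in 4 of 6 libraries, and stood at 0.00780 FPKM in overexpression 1 and 0.00371 FPKM in knockdown 2. Neither Robo1 nor Dcc was called in any contrast of that fit (limma, adjusted p = 0.105 to 0.358 for Robo1 in the contrasts with knockdown). Without read counts, no limit from counting error can be put on these values.

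**Figure D4:**
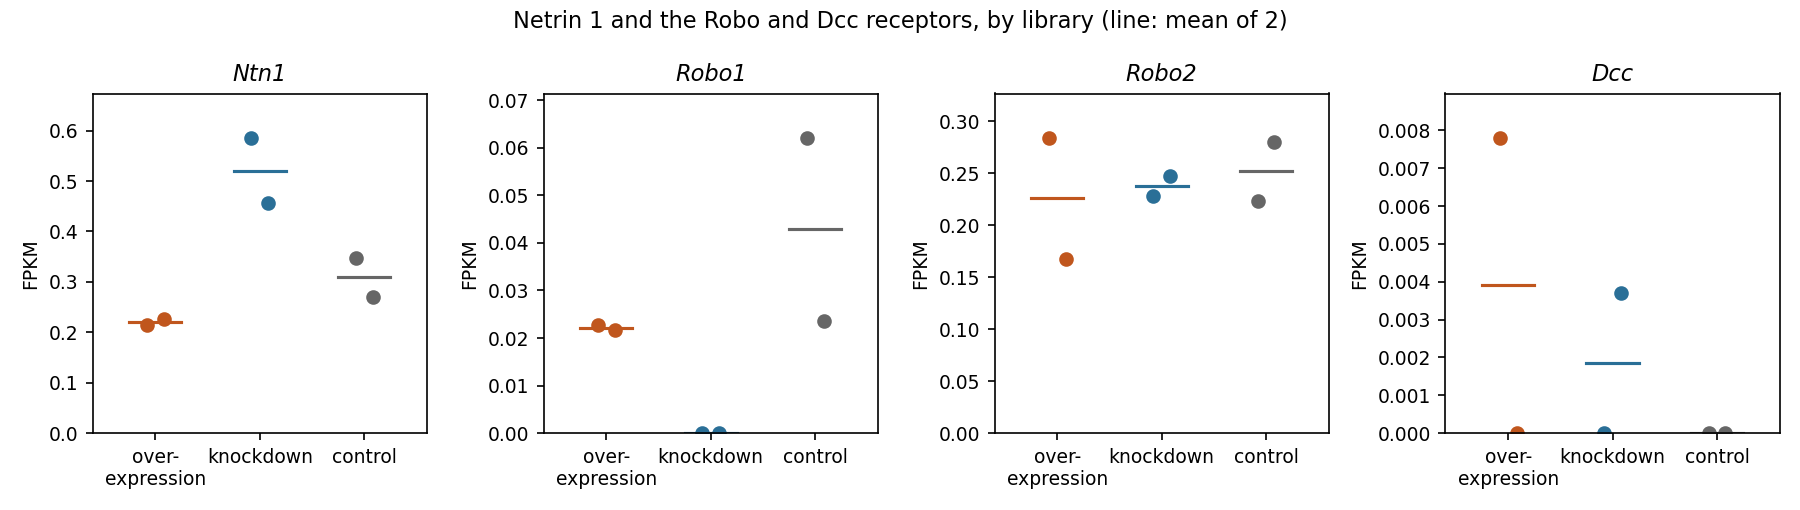
FPKM of Ntn1, Robo1, Robo2 and Dcc in each library (points) with the mean of 2 (line), each panel on its own axis from 0. All values lie below 0.6 FPKM, Ntn1 is highest in the knockdown libraries (0.586 and 0.456 FPKM), and Robo1 is listed at 0 there.

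The genes around this system were taken from 4 lists. In the list of other ligands and receptors 10 of 20 members were tested. Knockdown had 1 of them higher and 3 lower (median log2 fold change 0.003, against -0.07 over all tested genes), and overexpression 0 higher and 1 lower. The shares of all tested genes were 14.8% higher and 31.3% lower under knockdown, and 0.690% higher and 0.849% lower under overexpression. Lower under knockdown were Dag1, which encodes the Slit-binding matrix receptor dystroglycan (9.06 and 8.90 FPKM under knockdown, 14.5 and 13.9 FPKM in control cells; -0.60 ± 0.05), Dscam, a further netrin receptor (-0.43 ± 0.09), and Ntn3, a netrin gene (-0.42 ± 0.09). Their limma adjusted p-values were 1.57e-04, 0.00431 and 0.00555. Ntn3 stood at 6.98 and 6.83 FPKM under overexpression, 3.98 and 4.88 FPKM under knockdown, and 6.55 and 5.93 FPKM in control cells, above Ntn1 in every library. Neo1, which encodes neogenin, the close relative of Dcc, stood at 20.1 and 18.0 FPKM under overexpression, 21.8 and 22.9 FPKM under knockdown, and 18.2 and 20.0 FPKM in control cells. It was the gene of this list called higher under knockdown (0.22 ± 0.07; limma, adjusted p = 0.0331). Robo3, Robo4 and Unc5d were below 0.1 FPKM in all 6 libraries. Under overexpression Rgmb, which encodes a neogenin ligand, was lower, at 0.887 and 1.21 FPKM against 2.20 and 1.95 FPKM in control cells (-0.59 ± 0.11; limma, adjusted p = 0.0384).

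Of 23 tested genes that act downstream of Slit and Robo, 1 was higher and 11 were lower under knockdown (median -0.16). Over all tested genes 14.8% were higher and 31.3% lower there, and 1833 of 10721 had an unadjusted limma p under 0.05 under overexpression. Of the 23 genes, limma called 0 under overexpression, where 1.54% of all tested genes were called, and 8 had an unadjusted p under 0.05. The 3 with the smallest p under knockdown were Evl, of the Ena/VASP family of actin regulators (-0.49 ± 0.05; limma, adjusted p = 2.22e-04), the small GTPase gene Rac1 (-0.41 ± 0.05; 3.05e-04) and Srgap2, a Slit-Robo GTPase-activating protein gene (-0.48 ± 0.06; 5.18e-04). Srgap2 stood at 7.25 and 7.03 FPKM under overexpression, 4.92 and 4.84 FPKM under knockdown, and 7.16 and 7.22 FPKM in control cells. The knockdown libraries alone were low.

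Of 23 tested genes of netrin, Dcc and Unc5 signalling, 1 was higher and 13 were lower under knockdown (median -0.21), and 0 were higher and 1 was lower under overexpression. Over all tested genes 14.8% were higher and 31.3% lower under knockdown, and 1.54% were called in either direction under overexpression. The surplus of lower calls over all genes was smaller after scaling by median log ratio, at 2158 higher and 2420 lower. The netrin signalling gene called lower under overexpression was Tubb3, neuronal beta-tubulin, which can bind Dcc. Tubb3 stood at 313 and 337 FPKM under overexpression, 246 and 253 FPKM under knockdown, and 397 and 388 FPKM in control cells. Its log2 fold change was -0.27 ± 0.05 under overexpression (limma, adjusted p = 0.0470). Under knockdown it was -0.65 ± 0.05 (limma, adjusted p = 1.19e-04). Also lower under knockdown were Maged1, which encodes an Unc5a-binding protein (-0.50 ± 0.05; limma, adjusted p = 1.60e-04), and Pitpna, a phosphatidylinositol transfer protein gene (-0.43 ± 0.05; 3.20e-04).

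Heparan sulfate chains help Slit bind Robo, and 13 of the 20 genes of that list were tested. Under knockdown 3 were higher and 4 lower (median -0.11). Under overexpression limma called 0 of them, where 1.54% of all tested genes were called. An unadjusted limma p under 0.05 was found for 2, beside 1833 of all 10721 tested genes. Gpc6, a glypican gene, was lower (-0.68 ± 0.08; limma, adjusted p = 3.37e-04), as was Ext1, of the enzyme that extends the chains (-0.30 ± 0.06; 0.00326). Glce, an epimerase gene of the same pathway, was higher (0.36 ± 0.07; 0.00407). Under knockdown 40.0% of tested genes in the list of other ligands and receptors were called, 52.2% downstream of Slit and Robo, 60.9% around Dcc and Unc5 and 53.8% in the heparan sulfate list, beside 46.2% of all tested genes.

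**Figure D5:**
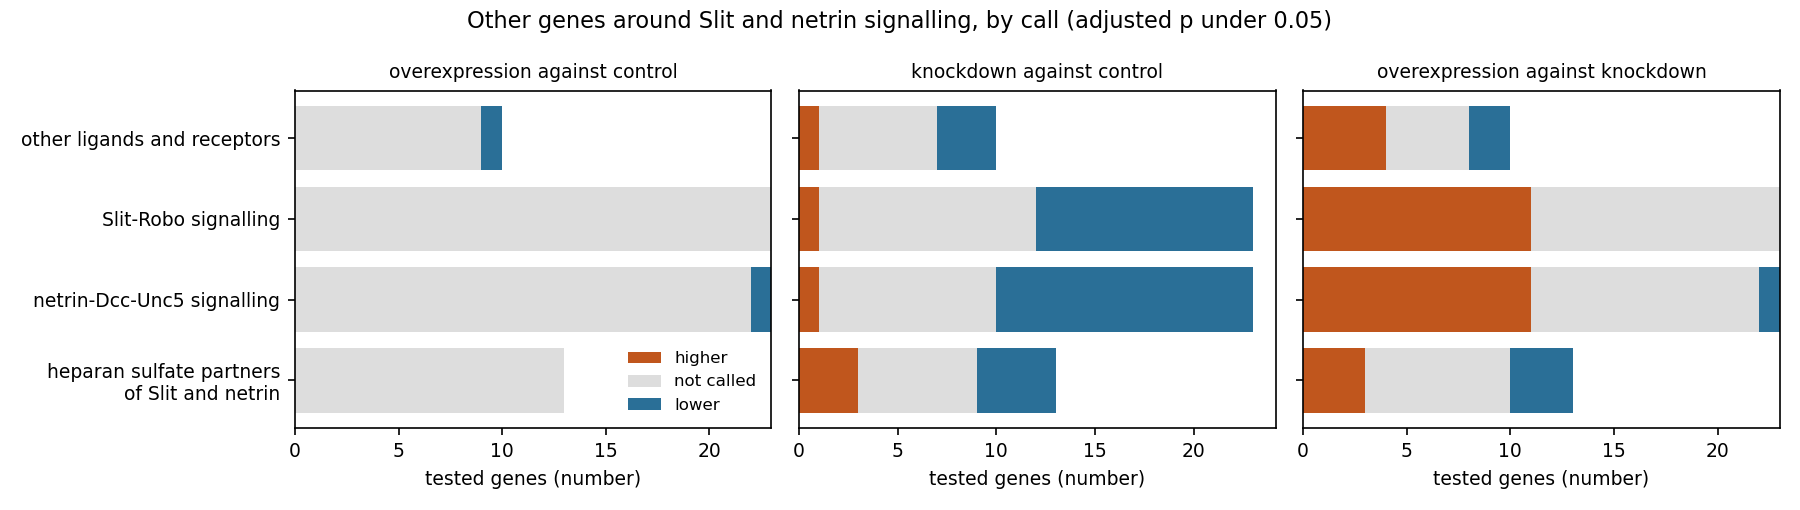
Number of tested genes in 4 lists around Slit and netrin signalling that were higher, not called or lower in each contrast (limma, adjusted p under 0.05). Under knockdown 11 of 23 Slit and Robo signalling genes and 13 of 23 netrin signalling genes are lower, and under overexpression 0 and 1 of them are. Of all tested genes, 31.3% are lower under knockdown and 0.849% under overexpression.

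Markers of digestive-tract cells and of neuroblasts moved with the knockdown libraries, and their part in the results was not tested. Of 15 tested digestive-tract transcripts, 14 were lower under knockdown, where 31.3% of all tested genes were lower. Under overexpression 1 of the 15 was higher and 1 lower, where 0.690% of all tested genes were higher and 0.849% lower. The 20 markers of that list summed to 57.1 and 70.6 FPKM under overexpression, 26.1 and 26.5 FPKM under knockdown, and 64.1 and 59.9 FPKM in control cells. Most of the knockdown sums came from Cela1, at 20.3 and 20.6 FPKM there and 23.2 and 25.9 FPKM in control cells. Reg1, Reg3b, Reg3g, Prap1, Fabp1, Tff2, Tff3, Defa24, Zg16, Krt18 and Cdx2 were listed at 0 in both knockdown libraries. Of these, Krt18 and Cdx2 reached at most 0.0796 and 0.0532 FPKM in any library, and Reg3g was also at 0 in overexpression 2. Of 13 tested neuroblast markers, 9 were lower and 1 higher under knockdown, and 2 were lower under overexpression. Over all tested genes 31.3% were lower and 14.8% higher under knockdown, and 0.849% were lower under overexpression. The 15 neuroblast markers summed to 998 and 1093 FPKM under overexpression, 827 and 851 FPKM under knockdown, and 1179 and 1142 FPKM in control cells. In bulk RNA, fewer cells of a kind and less RNA per cell cannot be told apart. Markers of fibroblasts, endothelium, blood cells and glia summed to at most 2.82 FPKM per list in any library, with Cldn5 and Hbb-bs at 0 in all 6.

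For each called member the 3 tested genes with the most similar profile were listed, by Pearson correlation of log2(FPKM + 1) over the 6 libraries. For Slit2 these were Eif2b1, Add3 and C1ql1 (r = 0.997 to 0.999), for Slit3 Sccpdh, Lpgat1 and Pom121 (0.998 to 0.999), and for Unc5c Atp7a, Adcy7 and Tcf4 (0.997 to 0.998). For Unc5a they were Tcaf1, Igsf21 and Apbb1 (0.979 to 0.984), for Unc5b Ehd1, Pisd and Csrnp1 (0.991 to 0.997), and for Slit1 Atmin, Spata6 and Camk1 (0.986 to 0.992). Add3 stood at 16.8 and 16.7 FPKM under overexpression, 12.5 and 13.4 FPKM under knockdown, and 22.5 and 22.3 FPKM in control cells, the same order of groups as Slit2. These are the top matches among 2460 to 7828 genes over only 6 points that share their groups, and they are descriptions.

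The remaining genes lie, on build GRCm38, on chromosome 19 from 41600257 to 41743665 (Slit1, minus strand), chromosome 13 from 54949411 to 55006018 (Unc5a, plus), chromosome 10 from 60762593 to 60831581 (Unc5b, minus), chromosome 3 from 141465216 to 141834924 (Unc5c, plus), and chromosome 11 from 68209364 to 68400823 (Ntn1, minus). Robo1 and Robo2 both lie on chromosome 16, from 72308306 to 73046095 (plus) and from 73891839 to 74411825 (minus), and Dcc lies on chromosome 18. The sources used here do not give whether counting used strand. Unc5a shares 34 exon bases with Hk3 on the other strand, 0.816% of its exon bases, and Unc5c shares 118 with the antisense gene Gm15688, 0.617%, so counting without strand would not separate reads from those stretches. The other 8 genes share 0 exon bases with another annotated gene.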

How the data were processed

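RNA sequencing libraries of Neuro-2a cells were made with a stranded, poly(A)-selecting kit, per the labels' protocols. The authors deposited FPKM for each symbol in each library. The tools named in the submitters' processing notes are Trimmomatic, HISAT2, Cufflinks, HTSeq and DESeq, with build mm10. For versions, annotation and filters the sources used here give nothing. Absolute depth is unknown. The commonest ratio between values under 0.1 FPKM gave depths of 0.887 to 1.07 relative to control 1. Counts were not recovered, so no counting intervals are given.

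Groups follow the sample titles. Values were taken as log2(FPKM + 1), which understates changes of low genes. The 10721 of 21878 rows that averaged 1 FPKM or more were fitted over all 6 libraries with limma 3.58.1 in R 4.3.3, a mean per group, trended moderation and 3 residual degrees of freedom. P-values were adjusted by the Benjamini-Hochberg method over all tested genes. The calculation was tested on simulated data. Members and lists were chosen with earlier results of these data known. Named genes were all 10 members, up to 3 called genes of each list with the smallest adjusted p per contrast against control, and the 3 most similar genes of each called member; Neo1, Robo3, Robo4, Unc5d and the markers were named after their values were seen. Motif letters were also chosen after the data were seen. Alternatives changed the pseudocount, the filter, scaling, moderation, the libraries fitted and the replicate block.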

Additional observations from a re-analysis of the deposited data

How the results depend on the processing

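Of the 6 expressed guidance genes, Slit2, Slit3, Unc5a, Unc5b and Unc5c were called under knockdown in each alternative, with 5 or 6 of the 10 genes called in all. Under overexpression the number called, 1, became 0 without a filter on low values, and was 0 to 1 with a library left out. Leaving out a library of a contrast leaves a single library in that group, assumed to vary like the others. The log2 fold change of Slit1 under overexpression ranged from -0.18 to 0.14 with a library left out and changed sign without overexpression 2 (0.04) and without control 2 (0.14). The cause was not tested. In overexpression against knockdown 3 to 5 genes were called. Over all genes, the 165 called under overexpression became 9 without a filter, 97 without the expression trend, 66 with the replicate block and 13 to 46 without one of the control or overexpression libraries. With the replicate number as a block, 1 guidance gene was called under overexpression, 5 under knockdown (Slit1 was lost) and 3 in overexpression against knockdown. The block fit called 66, 4504 and 3820 of all 10721 tested genes in these contrasts, in that order. The main fit called 46.2% of all tested genes under knockdown and 40.5% in overexpression against knockdown, so calls there are common. The replicate numbers are not known to pair libraries: deviations of same-numbered libraries correlated at -0.21, -0.12 and 0.007. Of 267 values of single genes under alternatives, 241 kept direction and call, 22 lost the call, 2 gained it and 2 changed sign. Depth is unknown, so genes near 0 FPKM, such as Robo1 and Dcc, cannot be ranked between groups.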
